A study of Homo sapiens with 14 samples.

Results

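The 3′ UTR is the stretch of a messenger RNA between the stop codon and the poly(A) tail, and proteins that bind there govern how stable, how well translated and where in the cell the message is. RBFOX2 belongs to a family of RNA-binding proteins whose RNA recognition motif reads the hexamer UGCAUG. It is best known as a regulator of alternative splicing in the nucleus, and it also binds 3′ UTRs. In the INSCRIBE assay a recombinant fusion of the cytidine deaminase APOBEC1 to a nanobody (APO1-Nb) is brought to an antibody on the protein of interest in fixed cells, and the deaminase turns cytosines of nearby RNA into uracil, which sequencing reads as a C-to-U edit site.

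The list of confident RBFOX2 edit clusters at 1 ng of RNA holds 776 clusters, and 564 of them (72.7%) had their midpoint in an annotated 3′ UTR of a protein-coding transcript on the same strand of hg38. Those 564 clusters in 446 genes are described here. The authors describe a confident cluster as one found in all 3 RBFOX2 replicates and not removed as a Buffer-only cluster. In the deposited files 71 of the 564 overlap no cluster called in RBFOX2 replicate 2 and 2 overlap none called in replicate 1, which departs from that definition. In either case the contrast between RBFOX2 and Buffer-only libraries at 1 ng chose the members, and values at 1 ng are a description with no test. Of the other lists, 51 of 250 Buffer-only clusters at 1 ng and 135 of 214 RBFOX2 clusters at 100 pg lay in 3′ UTRs by the same rule.

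All 14 libraries came from methanol-fixed cells of a HEK293T line (labelled HEK293XT), an immortalised human embryonic kidney line with its own unmodified RBFOX2. RBFOX2 libraries (3 replicates at each input) received a rabbit antibody against RBFOX2 and then APO1-Nb. The Enzyme-only library (1 at each input) received APO1-Nb without the antibody, and Buffer-only libraries (3 at each input) received neither. Total RNA going into a library was either 1 ng or 100 pg. The study describes replicates as separately treated wells or slides of one cell line and elsewhere calls them technical, so p-values here measure the spread between these libraries, which may be technical. Which culture or RNA sample each library came from is not in the labels. The study's methods take 1 ng or 100 pg from each sample, so the libraries of the 2 inputs may share RNA. The libraries held between 18650 and 42589 edit sites each, of which 2353 to 14064 lay in 3′ UTRs, with a median of 19 to 23 reads covering a site.

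Because the hexamer is what the protein is known to read, the sites below are printed first. They are 9 of the 10 clusters with UGCAUG within 50 nt of the midpoint that held the most edit sites in the 100 pg RBFOX2 libraries. Each line gives the RNA strand 5′ to 3′ from hg38, with UGCAUG in capitals and 12 bases to each side.
CDH2 (chr18:27951340-27951369, minus strand): auucagguuuuuUGCAUGuuuauaucuuuc
SERF1B (chr5:70032571-70032600, plus strand): aaacacuaaccaUGCAUGugacauauuggu
HPRT1 (chrX:134500170-134500199, plus strand): aguagagcuuuuUGCAUGuaucuucuaaga
FUBP3 (chr9:130638237-130638266, plus strand): uggaaaauguuaUGCAUGggguuuuuaaga
MED28 (chr4:17624090-17624119, plus strand): guuuuaaauuuuUGCAUGacuuuucaucuu
MTX2 (chr2:176337889-176337918, plus strand): uuccuugaaacaUGCAUGcauuuaaaaaua
APP (chr21:25881378-25881407, minus strand): guaucaaacuagUGCAUGaauagauucucu
ENAH (chr1:225496726-225496755, minus strand): uucucaguuaccUGCAUGaauaaauaauga
RNF2 (chr1:185101944-185101973, plus strand): auagauuauuaaUGCAUGcccacugaauau

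UGCAUG lay within 50 nt of the midpoint of 96 of the 564 clusters, which is 17.02% (95% Wilson interval 14.2% to 20.3%, counting error only). Over every position of the same 3′ UTRs, the share of windows of the same size that held it was 5.41%. The share in the clusters was 3.14 times that of their own UTRs at large. Counted only where the hexamer lay wholly inside the cluster, the share was 13.5% against 3.73% of windows of the same length. It was 13.7% within 50 nt for the 212 clusters of the list outside 3′ UTRs.

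In the 3′ UTR clusters that were called in 1 library at a time the hexamer was less frequent. The share was 5.84% ± 0.11 (SD, n = 3) in the RBFOX2 libraries at 1 ng, 3.25% in the Enzyme-only library and 2.86% ± 0.14 (SD, n = 3) in the Buffer-only libraries. Among the 51 clusters of the Buffer-only list in 3′ UTRs 2 had it, and among the 135 of the 100 pg list 16 had it, or 11.9%. No RBFOX2 library overlapped a control library in this share at 1 ng.

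Other short motifs were searched on the same strand and with the same reach of 50 nt. GCAUG, which includes every UGCAUG, was near 23.6% of the clusters against 10.52% of windows. GCACG, the other form of the RBFOX core, was near 1.95% against 1.70%. UGUGUG, the repeat read by TDP-43, was near 4.08% of clusters against 5.07% of windows. The polyadenylation hexamer AAUAAA was near 9.57% against 13.2%, UUUUUU near 21.8% against 18.3%, and UGUANAUA, the Pumilio site, near 4.61% against 2.94%. UGCAUG and GCAUG were the motifs with the widest gap in percentage points. The clusters held 37.7% U, 29.5% A, 16.7% G and 16.1% C, beside 34.1%, 29.4%, 19.01% and 17.5% in their whole UTRs.

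**Figure D1:**
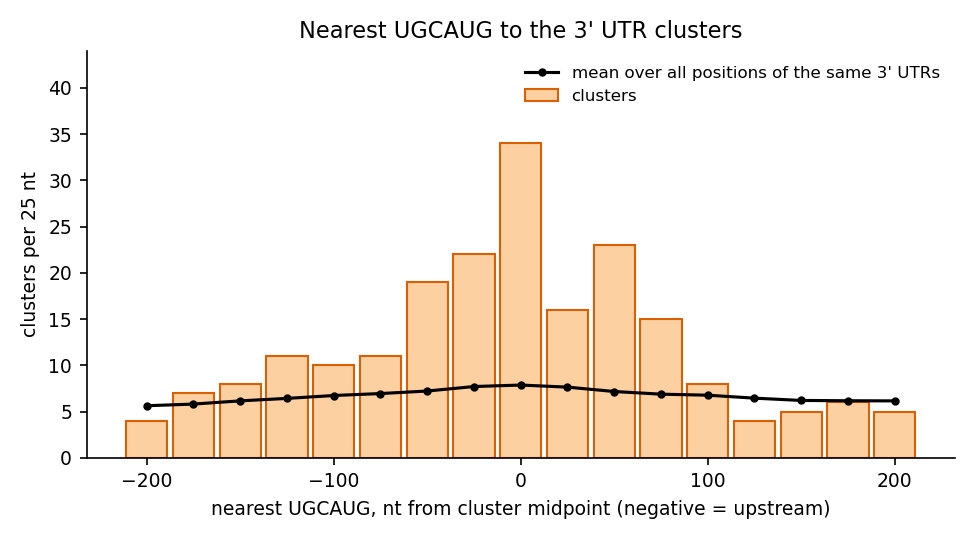
Number of 3′ UTR clusters (bars, per 25 nt) by the distance in nt from the cluster midpoint to the nearest UGCAUG on the RNA strand, with negative values upstream. The line is the mean number for all positions of the same UTRs; the bar at 0 holds 34 clusters where the line is at 7.87, and beyond 100 nt on the downstream side the bars are at or below the line.

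The hexamer was upstream of the midpoint in 56 of the 96 clusters and downstream in 40. They came from 93 genes, and 3 clusters had more than 1 copy. They resembled the other 468 clusters in length (median 45 nt in each) and less in read coverage, with a median of 91.0 reads against 116.7. Their midpoints lay farther along the UTR, at a median of 52.6% of the way from stop codon to transcript end against 42.2%.

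Inside the 564 clusters the RBFOX2 libraries at 1 ng held 765, 680 and 1195 edit sites. The Enzyme-only library held 161 and the Buffer-only libraries 22, 28 and 30. All RBFOX2 libraries lay above all controls. Replicate 3 stood apart from replicates 1 and 2. Of the 564 clusters, 562 have exactly the start and end of a cluster called in RBFOX2 replicate 3, against 71 for replicate 1 and 69 for replicate 2. With 50 nt added to each side of every cluster, the RBFOX2 libraries held 1226, 1148 and 1244 sites, the Enzyme-only library 280 and the Buffer-only libraries 53, 54 and 58.

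Every cluster overlapped a cluster called in replicate 3, 562 overlapped one called in replicate 1, and 493 one called in replicate 2. At least 1 site was present in 467, 422 and 562 of the clusters in the RBFOX2 libraries, in 110 in the Enzyme-only library, and in 22 to 27 in the Buffer-only libraries. A site in each RBFOX2 library was found in 377 clusters. In 307 clusters the RBFOX2 libraries summed to between 3 and 5 sites, in 49 to 10 or more, and the highest sum was 37.

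**Figure D2:**
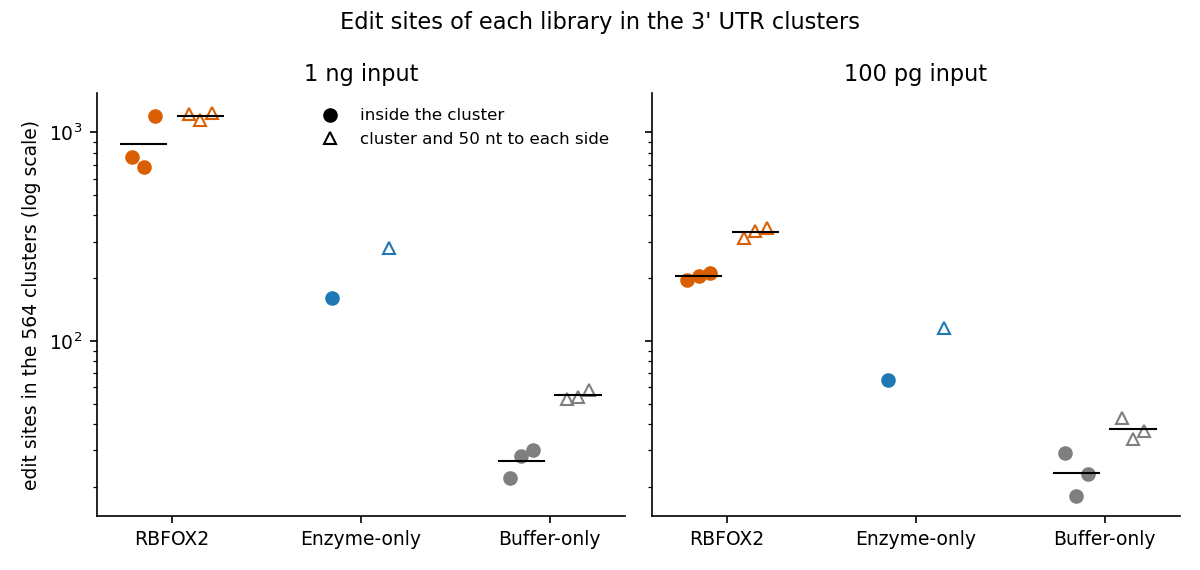
Edit sites of each library in the 564 clusters, on a log axis, at 1 ng (left) and 100 pg (right); filled circles count sites inside the cluster, open triangles add 50 nt to each side, and black lines are means of 3 libraries. On the right, 18 to 29 sites lie inside the clusters in Buffer-only libraries, 65 in the Enzyme-only library and 197 to 211 in RBFOX2 libraries.

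At 100 pg, where the libraries took no part in choosing the clusters, the same order was seen. The inputs may share RNA, so these libraries may not be independent of that choice. The RBFOX2 libraries held 197, 205 and 211 sites in the clusters, the Enzyme-only library 65, and the Buffer-only libraries 29, 18 and 23. The mean was 204.3 ± 7.02 (SD, n = 3) against 23.3 ± 5.51 (SD, n = 3), 8.76 times as many. The groups did not overlap, and the two-sided exact permutation test gave p = 0.1, which is the smallest that 3 against 3 libraries allow.

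The difference was also present relative to the sites of each library. As a share of all sites of a library, the clusters at 100 pg held 0.742%, 0.747% and 0.773% with the antibody (RBFOX2), while the Buffer-only shares were 0.137%, 0.0866% and 0.123% (exact permutation p = 0.1). Wilson 95% intervals ran from 0.646% to 0.884% over the RBFOX2 libraries and from 0.0548% to 0.197% over the Buffer-only ones. The Enzyme-only share was 0.262% (interval 0.206% to 0.334%), between the groups. As a share of 3′ UTR sites alone, the means were 3.41% ± 0.14 and 0.932% ± 0.227 (SD, n = 3 each, exact permutation p = 0.1), with 1.48% in Enzyme-only.

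Reads carrying an edit showed the same split. At 100 pg the clusters held 1369, 1378 and 1615 edited reads in RBFOX2, 402 in Enzyme-only and 189, 66 and 153 in Buffer-only (exact permutation p = 0.1). Clusters with at least 1 site numbered 129, 129 and 127 in RBFOX2, 48 in Enzyme-only and 23, 16 and 21 in Buffer-only (exact permutation p = 0.1).

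Of sites inside any cluster of the 1 ng list at 100 pg, the 3′ UTR clusters held 75.2%, 77.6% and 78.4% in RBFOX2, 57.0% in Enzyme-only and 40.3%, 37.5% and 39.7% in Buffer-only (exact permutation p = 0.1). The 212 clusters outside 3′ UTRs held 58 to 65 sites in RBFOX2 and 30 to 43 in Buffer-only. RBFOX2 exceeded Buffer-only by 8.76 times in the 3′ UTR clusters and by 1.69 times in the others. Whole libraries at 100 pg also differed by region. A mean of 6003 of 27100 sites lay in 3′ UTRs in RBFOX2 and 2513 of 20190 in Buffer-only.

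The sites were also split by whether their cluster had the hexamer. At 100 pg, clusters with UGCAUG within 50 nt held 22.3%, 35.1% and 27.0% of the sites of the RBFOX2 libraries, 9.23% of those of Enzyme-only and 3.45%, 0% and 4.35% of those of Buffer-only (exact permutation p = 0.1). In counts these were 44, 72 and 57 sites in RBFOX2, 6 in Enzyme-only and 1, 0 and 1 in Buffer-only. In the 468 clusters without the hexamer the RBFOX2 libraries held 153, 133 and 154 sites, the Enzyme-only library 59 and the Buffer-only libraries 28, 18 and 22. The RBFOX2 mean was 9.61 times Enzyme-only with the hexamer and 2.49 times without it, with 1 Enzyme-only library and no test of that difference. At 1 ng, as a description, it was 7.35 times with the hexamer and 5.10 times without it. There the ranges over RBFOX2 libraries overlapped, at 5.77 to 8.81 and 3.93 to 7.16.

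Around the hexamer the sites of the RBFOX2 libraries peaked. In the 40 nt downstream of the motif centre 16.7% of cytosines were called as edit sites in an RBFOX2 library at 1 ng on average, and 9.58% in the 40 nt upstream. Between 160 and 200 nt away the share was 4.42% upstream and 3.47% downstream. The Enzyme-only library stayed between 0.466% and 1.57% in all bins at 1 ng. The clusters were chosen by 1 ng sites close to their midpoint, so a peak at 1 ng is part of the choice.

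At 100 pg the RBFOX2 share was 5.18% in the 40 nt downstream, 3.36% in the 40 nt upstream, and 1.34% and 0.932% in the outermost bins. Enzyme-only had 0.179% in the 40 nt downstream and 0.621% in the 40 nt upstream. Of all sites within 200 nt of the hexamer, 53.7% to 65.2% lay within 80 nt in the RBFOX2 libraries, 31.0% in Enzyme-only and a mean of 40.7% in Buffer-only. The central bins lie in or beside the clusters, since each hexamer was taken within 50 nt of a midpoint. Clusters without the hexamer were not profiled in this way. Whether the 100 pg peak follows the hexamer or the clusters was not tested.

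**Figure D3:**
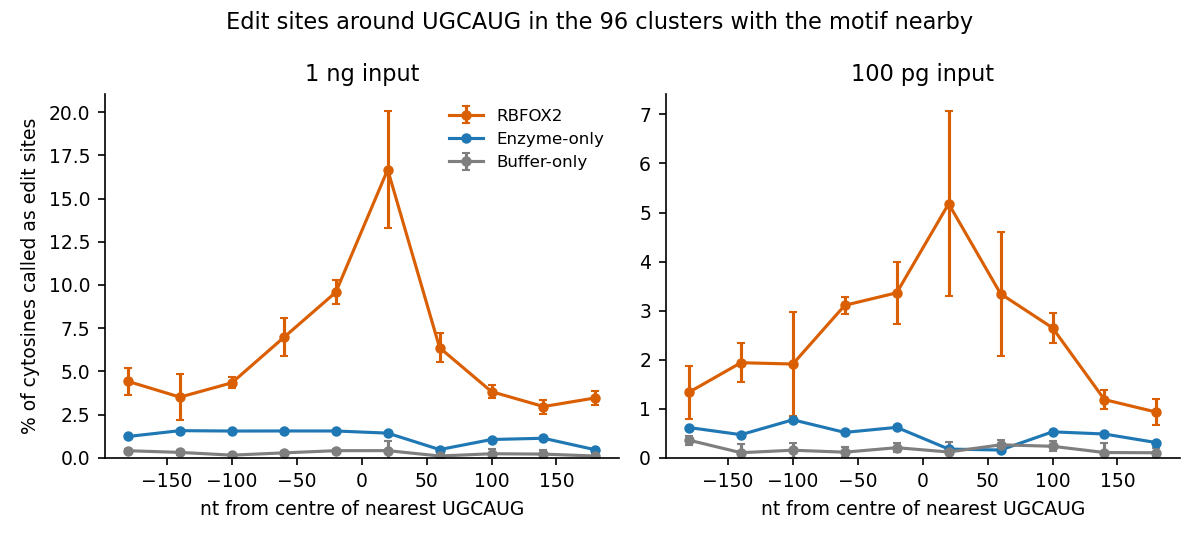
Share of cytosines called as edit sites in 40 nt bins around the nearest UGCAUG for the 96 clusters that have it within 50 nt, averaged over the libraries of a group with SD bars for groups of 3; the y axes differ between 1 ng (left) and 100 pg (right). The RBFOX2 line is highest just downstream of the motif, at 16.7% and 5.18%, while Enzyme-only and Buffer-only stay at or below 1.57%.

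The base before each edited cytosine was read from the genome. APOBEC1 favours cytosines that follow A or U. In the clusters 91.9% to 93.1% of RBFOX2 sites at 1 ng and 91.2% to 94.4% at 100 pg followed A or U, with 87.6% and 81.5% in Enzyme-only. Buffer-only sites followed A or U in 45.5% to 70.0% of cases at 1 ng and 60.9% to 79.3% at 100 pg, on 18 to 30 sites a library. On the strand opposite to the clusters the libraries held 6 to 16 sites each, with 9 to 16 in RBFOX2 and 6 to 14 in Buffer-only.

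Single positions recurred less often than clusters. The libraries together edited 2298 positions in the clusters. Of 1973 positions edited in an RBFOX2 library at 1 ng, 1419 were seen in 1 of the 3 libraries, 441 in 2 and 113 in all 3. Pairs of RBFOX2 libraries shared 16.5% to 17.9% of their joint positions at 1 ng and 6.63% to 8.05% at 100 pg. Of the 113 positions, 55 (48.7%) were edited again in a 100 pg RBFOX2 library, against 198 of the 1419 (13.95%). Of the 113, 13 also carried the change in a Buffer-only library of either input, and 92 in no control library. Sites were sparse and edited weakly, with a median edit fraction of 2.94% to 3.23% in the RBFOX2 libraries at 1 ng and 5.09% to 6.09% at 100 pg.

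Of the positions edited in at least 5 of the 6 RBFOX2 libraries and in no Buffer-only library, 8 are shown because they recurred in the most libraries. Each line is the RNA strand 5′ to 3′ from hg38, with the edited cytosine in capitals and 12 bases to each side. The position in SERF1B is not printed, since its window overlaps the one above.
ARF4 (chr3:57571572-57571596, minus strand): ugguuuuuaauaCucagcagauugu
ATP6V1G1 (chr9:114597902-114597926, plus strand): uuuuuguacagaCuuagaaauuauc
DDIT4 (chr10:72275551-72275575, plus strand): aaggaagaggcaCgugcuccucaga
HPRT1 (chrX:134500205-134500229, plus strand): aucuguuuuguaCuuuagaaauguc
MZT1 (chr13:72709839-72709863, minus strand): gcugaaaguugaCaggauuucagcc
PRDX3 (chr10:119167866-119167890, minus strand): acuuauuuuauuCauuagcuaacuu
SDHD (chr11:112095200-112095224, plus strand): gccucccagcuuCuuauaagacuca
USP1 (chr1:62451625-62451649, plus strand): uuaacucauauuCugcacgaucugu

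The position in HPRT1 was edited in all 6 RBFOX2 libraries and in no control. The edit fraction was 1.77% to 3.45% at 1 ng and 1.49% to 11.6% at 100 pg, and the cytosine lay 32.5 nt downstream of the centre of the nearest UGCAUG. These fractions rest on 181 to 290 reads a library. In PRDX3, for a mitochondrial peroxiredoxin, the cytosine lay 53.5 nt downstream of the hexamer, and in ARF4, a small GTPase of the Golgi, 43.5 nt upstream of it. Within 2000 nt of the positions in ATP6V1G1, a subunit of the proton pump of acidic organelles, SDHD, of succinate dehydrogenase, DDIT4 and USP1, a deubiquitinase, there was no UGCAUG. The positions in ARF4, MZT1 and USP1 were each also called in 1 Enzyme-only library, at 3.83%, 1.67% and 5.33%.

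Other recurrent positions carried the change without enzyme. The position in the UBR4 cluster was read as changed in 48.6% to 68.4% of reads in RBFOX2 at 1 ng, 57.6% to 59.1% in the Buffer-only libraries that called it, and in 21 of 28 reads in Enzyme-only. KPNA1 was changed in 16.7% to 41.7% of reads in RBFOX2 at 1 ng, and in 6 of 25 and 3 of 15 reads in the Buffer-only libraries that called it. Positions in SRSF3, a splicing factor, and SET, a histone chaperone, were at most 6.45% in every library and called in 4 and 5 Buffer-only libraries. For these 4 positions the RBFOX2 and Buffer-only ranges at 1 ng overlapped.

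The cluster with most edit sites at 1 ng lay in YWHAE, which encodes the 14-3-3 epsilon adaptor that binds phosphorylated proteins (chr17:1344546-1344770, minus strand, 789 nt from the stop codon in a UTR of 1172 nt). It held 12, 17 and 8 sites in RBFOX2, 2 in Enzyme-only and 0, 3 and 1 in Buffer-only at 1 ng. The RBFOX2 sites carried only 17, 21 and 10 edited reads at a mean coverage of 813.5, so most rested on 1 edited read. At 100 pg the RBFOX2 libraries held 6, 4 and 4 sites there, the Enzyme-only library 0 and Buffer-only 1, 0 and 0. The groups did not overlap at either input. Its nearest UGCAUG lay 118.5 nt from the midpoint. YWHAG, for the gamma form, had its main cluster at chr7:76327250-76327459 with the hexamer 12.5 nt away and 9, 6 and 6 sites in RBFOX2, 0 in Enzyme-only and none in Buffer-only at 1 ng. At 100 pg each RBFOX2 library held 1 site there, as did the Enzyme-only library, and no Buffer-only library held any.

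CDH2, which encodes the cell adhesion protein N-cadherin, had a cluster of 345 nt at chr18:27951177-27951521 with UGCAUG 5.5 nt from the midpoint. It held 9, 5 and 12 sites in RBFOX2 and 1 in Enzyme-only at 1 ng, 2, 6 and 3 in RBFOX2 at 100 pg, and 0 in all 6 Buffer-only libraries. MTPN, for the ankyrin-repeat protein myotrophin, had the longest cluster, of 435 nt, with 2, 7 and 15 sites in RBFOX2 at 1 ng and 5, 6 and 1 at 100 pg. Buffer-only replicate 3 at 1 ng held 2 sites there, and Enzyme-only 1 at each input. Both clusters overlap a gene on the opposite strand.

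APP encodes the amyloid precursor protein, and its 3′ UTR of 1120 nt was used by the study as an example. Its main cluster (chr21:25881346-25881510, minus strand, hexamer 35.5 nt from the midpoint, printed above) held 7, 3 and 5 sites in RBFOX2, 0 in Enzyme-only and 0, 1 and 0 in Buffer-only at 1 ng. At 100 pg it held 2, 3 and 1 sites in RBFOX2 and 0 in every control. A smaller APP cluster 407 nt from the stop codon held 1 site in each RBFOX2 library at 1 ng. No cluster of the 564 lay in PKM, OGT, DEPDC1 or DCUN1D4, the study's other examples.

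Among the clusters with the hexamer, HPRT1, for the purine salvage enzyme, held 3, 3 and 4 RBFOX2 sites at 1 ng and 4, 2 and 3 at 100 pg, with 0 in all control libraries. RNF2, a ubiquitin ligase of Polycomb complexes, held 4, 3 and 3 and then 3, 1 and 2, also with 0 in all controls. FUBP3, a single-strand binding KH protein, held 4, 1 and 1 and then 3, 2 and 2. That cluster had no site in a control library, while another FUBP3 cluster held 3 in Enzyme-only at 1 ng. ENAH, an actin regulator, held 4, 2 and 5 at 1 ng and 0, 3 and 3 at 100 pg, and MED28, a Mediator subunit, 2, 2 and 5 and then 1, 0 and 6, so that in each 1 RBFOX2 library at 100 pg had none. ENAH had 0 in the controls and MED28 had 1 in Enzyme-only at each input.

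MTX2, for a mitochondrial outer membrane import protein, held 1, 2 and 2 RBFOX2 sites at 1 ng and 2, 3 and 2 at 100 pg, with 1 in Enzyme-only at 1 ng. SERF1B held 4, 2 and 10 and then 5, 5 and 1, with no control site, but its reads can be shared with the near-identical copy SERF1A and its place is uncertain.

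The leading clusters without the hexamer within 50 nt included several with sites in controls. MZT1, a subunit that recruits gamma-tubulin complexes, held 3, 6 and 8 RBFOX2 sites at 1 ng and 4, 2 and 5 at 100 pg, with 2 in Enzyme-only and 1 in Buffer-only replicate 3 at 1 ng. RAB11A, a GTPase of recycling endosomes, held 1, 4 and 8 and then 6, 3 and 2, with 2 in Enzyme-only at 1 ng. ZNF503 held 4, 5 and 6 and then 6, 2 and 5, with 1 and 3 in Enzyme-only and 1 in Buffer-only replicate 2 at 1 ng. In DEK, a chromatin protein, Enzyme-only had 5 sites at 100 pg while RBFOX2 had 2, 0 and 2, and at 1 ng RBFOX2 had 6, 1 and 9 and Enzyme-only 0.

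SCAF11, an arginine-serine protein of splicing, held 2, 2 and 13 RBFOX2 sites at 1 ng, and ZFR, a zinc finger RNA-binding protein, 3, 2 and 11. In these the count of replicate 3, whose boundaries the list carries, was over 3 times the others. At 100 pg SCAF11 held 2, 0 and 0 and ZFR 0, 0 and 3. Enzyme-only held 2 sites in SCAF11 at 1 ng, and Buffer-only replicate 2 held 1 in ZFR at 100 pg. AASDHPPT, which attaches the phosphopantetheine arm to carrier proteins, held 2, 6 and 10 and then 1, 3 and 0, with 1 in Enzyme-only at 1 ng.

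**Figure D4:**
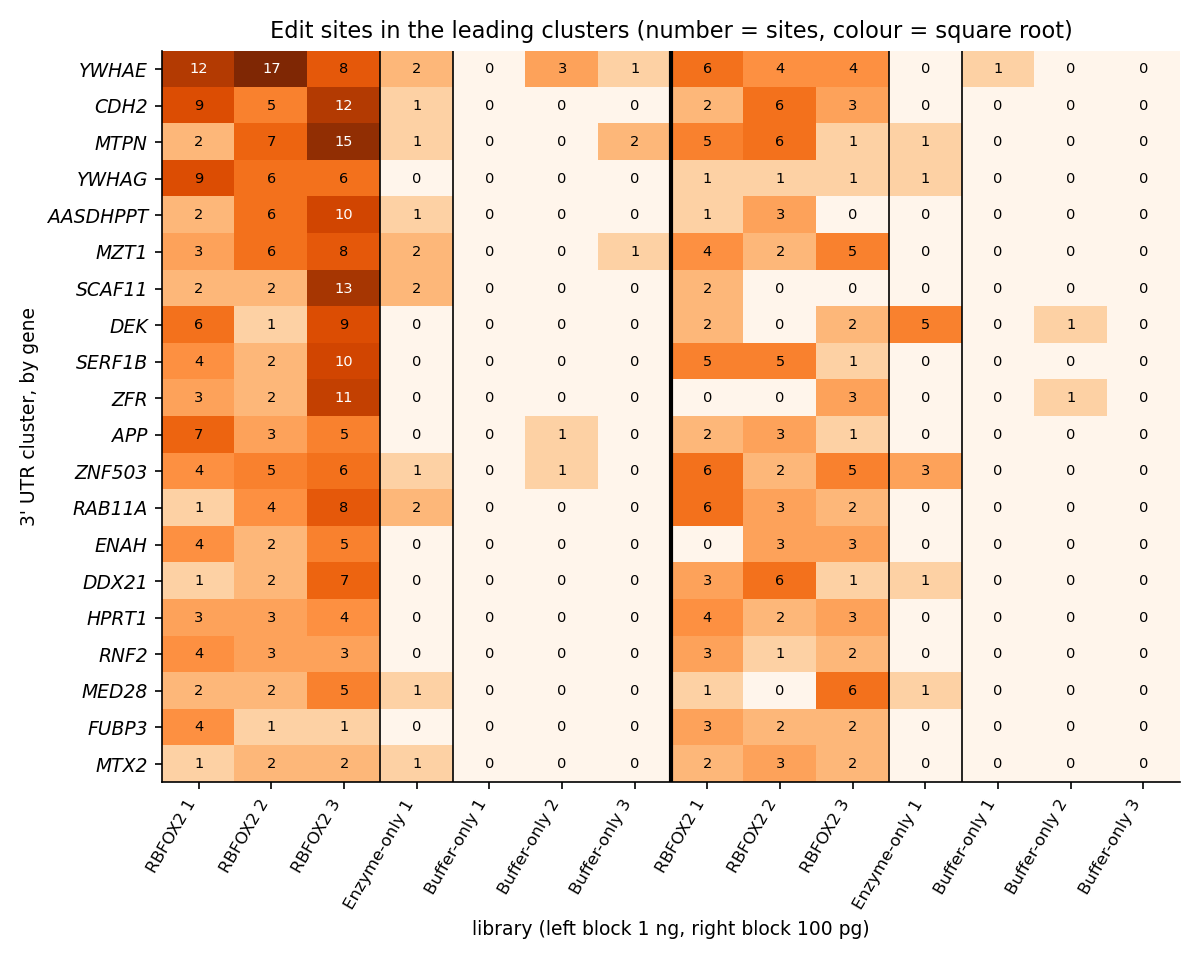
Edit sites in each of the 14 libraries (columns, 1 ng left of the thick line) for the clusters with most sites at 1 ng, with the hexamer and most sites at 100 pg, or overlapping a 100 pg cluster (rows, by gene, with 1 cluster not shown). Numbers are sites and colour follows their square root; counts run up to 17 in RBFOX2 libraries and up to 5 in control libraries.

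Over all 564 clusters, the 100 pg RBFOX2 libraries all lay above all Buffer-only libraries in 33 (5.85%), and 0 lay the other way. Among the 37504 clusters called in 3′ UTRs in any 1 ng library, 88 (0.235%) did so and 0 (0%) lay below. Of the 33, 30 had no Buffer-only site at 100 pg, 11 were among the 96 with the hexamer (11.5%) and 22 among the 468 without (4.70%). With 50 nt added to each side the count was 54, with no padded share of the 37504 to set beside it. At 1 ng, where this contrast chose the list, 337 (59.8%) of the clusters had it against 1.54% of all 3′ UTR clusters.

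At least 1 site in a 100 pg RBFOX2 library was present in 246 clusters (43.6%), against 11.8% of the 37504. Coverage moved with this. The median depth of the clusters called in an RBFOX2 library at 1 ng was 50.6 to 54.5 reads over all 3′ UTR clusters and 108.7 to 111.5 reads over those that overlap the 564, and its part in the result was not tested. With the hexamer 57 of 96 clusters (59.4%) had such a site and without it 189 of 468 (40.4%).

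The separately called list at 100 pg shared 39 clusters with the 564, or 6.91%, and 40 of its 214 clusters (18.7%) overlapped one of them. Of the 39, 12 had the hexamer. Outside 3′ UTRs, 12 of 212 clusters (5.66%) overlapped the 100 pg list. The overlapping clusters include those of YWHAE, CDH2, MTPN, MZT1, RAB11A, ZNF503, HPRT1, SERF1B and DDX21, a nucleolar RNA helicase.

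The clusters spread over the whole length of the 3′ UTR. The median UTR was 2176 nt long (quartiles 1158 and 3640), and the median cluster lay 741 nt from the stop codon and 816.5 nt from the transcript end. The midpoint lay at a median of 43.1% of the way, with quartiles at 19.6% and 74.8%. In 315 clusters (55.9%) it was nearer the stop codon than the end. Of all 3′ UTR sites, 52.5% ± 0.7 (SD, n = 3) in RBFOX2 at 1 ng, 52.2% in Enzyme-only and 51.2% ± 0.8 (SD, n = 3) in Buffer-only were nearer the stop codon.

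The last 10% of the UTR held 38 clusters (6.74%), where it held 9.56% of RBFOX2 sites, 8.82% of Enzyme-only sites and 9.53% of Buffer-only sites at 1 ng. The part from 80% to 90% held 71 clusters (12.6%). Within 300 nt of the end lay 107 clusters (18.97%), close to the 19.7% to 20.3% of sites in the RBFOX2 libraries and below the 24.7% to 25.2% in Buffer-only. Only 19 lay within 100 nt of the end and 36 within 100 nt of the stop codon.

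**Figure D5:**
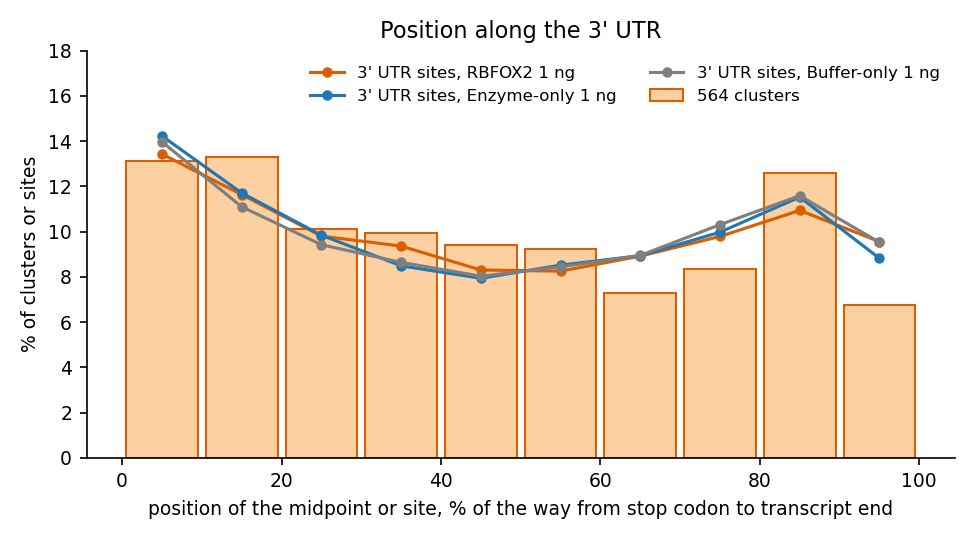
Share of the 564 clusters (bars) and of all 3′ UTR edit sites at 1 ng (lines, mean of the libraries of a group) in steps of 10% of the way from stop codon to transcript end. The bars from 0 to 10% and from 10% to 20% hold 74 and 75 clusters, the most of any step, and the bar nearest the end holds 6.74% of the clusters against 9.56% of RBFOX2 sites.

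By length of the UTR, the positions were as follows. In UTRs of up to 1000 nt the median midpoint of 116 clusters was at 46.3% of the way, and in UTRs over 4000 nt that of 131 clusters was at 26.6%, with 67.2% of them nearer the stop codon. In nt those 131 lay a median of 1499 from the stop codon and 3713 from the end. The share with the hexamer was 15.5% in the shortest class and 19.1% in the longest. Genes with a cluster had a median UTR of 2054 nt, against 1750 nt for the 7577 genes with a 3′ UTR site in an RBFOX2 library at 1 ng.

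The extremes were named genes. The cluster nearest a stop codon, 1 nt past it, lay in PEBP1, a phosphatidylethanolamine-binding protein that inhibits Raf signalling, and the farthest, at 10989 nt, in HIPK2, a nuclear kinase. PRDX3, the mitochondrial peroxiredoxin, had the cluster nearest a transcript end, at 31 nt, and TMEM106B, a lysosomal membrane protein, the farthest, at 10787 nt. The shortest UTR, of 160 nt, belonged to ESD and the longest, of 12567 nt, to TNRC6B, a scaffold of microRNA silencing.

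Most genes, 357 of 446, had a single cluster, 67 had 2, 16 had 3, 5 had 4 and 1 had 5. The gene with 5 was TOMM20, the import receptor of the mitochondrial outer membrane, whose clusters lay 127, 270, 885, 982 and 2340 nt past the stop codon and held 20 RBFOX2 sites at 1 ng and 11 at 100 pg. No control library held a site in them, and the hexamer was near 1 of the 5. ZNF770 had 4 clusters and 33 RBFOX2 sites at 1 ng, but 2 at 100 pg. MSI2, an RNA-binding translational regulator, had 4 clusters with 19 sites at 1 ng and 0 at 100 pg. PSMD12, a proteasome subunit, and TM9SF3 had 4 clusters and 13 sites each at 1 ng.

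By function, 14 lists of gene names were compared with the 7577 genes, of which 446 (5.89%) had a cluster. Of the 446, 241 were in no list, and most lists lay above 5.89%. These shares were not tested and take no account of read depth. RNA-binding, decay and microRNA proteins had a cluster in 21 of 142 genes (14.8%), with 7 of 27 clusters near the hexamer. Among them DICER1, which cuts microRNA precursors, held 3, 4 and 4 RBFOX2 sites at 1 ng and 0 in all controls, and SERBP1, an mRNA-binding protein, held 3, 1 and 3 in its main cluster. At 100 pg the RBFOX2 libraries held 1, 0 and 1 in the DICER1 cluster and 0, 1 and 0 in that of SERBP1. Splicing factors and hnRNP proteins had a cluster in 14 of 124 genes (11.3%), and 0 of their 15 clusters were near the hexamer. The lists were drawn by gene name, and clusters near the hexamer in DDX5, DDX17 and LSM5 fall outside this list. The 0 holds for the listed genes only.

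In that list QKI, a STAR-family splicing regulator, held 5, 4 and 6 RBFOX2 sites at 1 ng in its main cluster with 1 in Enzyme-only. SF3B1, the U2 snRNP subunit, held 3, 3 and 7 at 1 ng with 1 in Buffer-only replicate 1, and 0 in every library at 100 pg. HNRNPF, which binds G-tracts, held 4, 2 and 3 at 1 ng and 2, 1 and 1 at 100 pg with 0 in controls. Translation factors and ribosomal proteins had 8 of 82 genes (9.76%), also with 0 of 10 clusters near the hexamer. EIF4G2, a translation initiation protein, held 3, 3 and 2 and then 2, 3 and 2 sites, with 1 in Buffer-only at 100 pg. EIF2S3, the gamma subunit of eIF2, held 1, 3 and 4 at 1 ng, and 1, 0 and 2 at 100 pg with 1 in Enzyme-only.

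Small GTPases and membrane traffic had 26 of 241 genes (10.8%), led by RAB11A, ARF4, AP3S1 and VPS26A, with 7 of 33 clusters near the hexamer. The ARF4 cluster near the hexamer held 3, 4 and 2 RBFOX2 sites at 1 ng and 4 in Enzyme-only. At 100 pg it held 1, 1 and 0 in RBFOX2 and 0 in Enzyme-only. Cytoskeleton, motor and adhesion genes had 15 of 128 (11.7%), with CDH2 first and then WASF1, an activator of actin branching, whose main cluster held 3, 4 and 3 RBFOX2 sites and 0 in controls at 1 ng. At 100 pg that WASF1 cluster held 0 in every library. Mitochondrial and core metabolic genes also had 15 of 128 (11.7%), among them TOMM20 and SDHD. Nuclear transport had 6 of 53 (11.3%), with IPO7, KPNA4 and TNPO1, import receptors, in front.

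Chromatin regulators had 21 of 216 genes (9.72%). SMC1A, of the cohesin ring, held 3, 4 and 4 RBFOX2 sites and 3 Enzyme-only sites in its main cluster at 1 ng, and CBX6, of Polycomb complexes, 2, 4 and 4 with 1 in Enzyme-only and 1 in each of 2 Buffer-only libraries. At 100 pg the SMC1A cluster held 0, 1 and 0 in RBFOX2. The CBX6 cluster held 0, 3 and 5 there, with 1 in Buffer-only replicate 3. The name pattern of that list also took HMGCS1, an enzyme of sterol synthesis. Cell division had 11 of 139 genes (7.91%), with MZT1, KIF5B, NUF2 and CDC23, and kinases, phosphatases and 14-3-3 proteins 17 of 230 (7.39%), with YWHAE, YWHAG, MAPK6 and PPP1CC.

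Chaperones and stress genes had 7 of 103 (6.80%), and ubiquitin and SUMO genes 18 of 269 (6.69%). DDIT4, an inhibitor of mTORC1 signalling, had 3 clusters within its UTR of 848 nt, and the middle one held 3, 2 and 2 and then 2, 2 and 1 sites with 0 in controls. UBE2E2, a ubiquitin-conjugating enzyme, held 3, 2 and 5 and then 1, 1 and 3 sites, 17.5 nt from the hexamer, with 0 in controls. Membrane receptors, channels and transporters had 19 of 336 (5.65%), APP among them, and zinc finger and other transcription factors 12 of 355 (3.38%), the lowest share of the lists.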

How the data were processed

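Edit sites and edit clusters were analysed as the authors deposited them. Per the submitters' processing notes, reads were trimmed with cutadapt and aligned to hg38 with STAR 2.4.0. The study's methods add removal of repeat reads and of known SNPs. SAILOR called C-to-U sites, and the deposited tables hold for each site a score, the count of edited reads and the count of covering reads. The authors kept sites at a score above 0.5 and an edited fraction below 0.8. FLARE joined sites into clusters (FDR 0.1, merge distance 15 nt), deposited with their coverage, a read signal. The confident lists are the authors' own, made from replicates together, so a cluster has no replicate of its own. The clusters' own p-values were not used here.

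Here 3′ UTRs came from Gencode release 44 (the authors annotated with an earlier release), on the MANE Select transcript where it carried the midpoint (548 clusters), else the canonical or longest transcript. In 560 of 564 clusters the deposited annotation names an exon of the same gene. Sites were counted by strand inside each cluster, with Python 3.11.15, pandas 2.3.3, scipy 1.17.1, pysam 0.24.0 and samtools 1.23.1. Groups at 100 pg were compared by two-sided exact permutation of the difference in means over libraries; counting and tests were tested on simulated data. At 1 ng no test was made. Windows of the same size were counted at every position of each cluster's UTR, with no sampling.

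The members, lists and rules were chosen with earlier results of these data known. Named genes are those of the 10 clusters with most 1 ng sites, of up to 10 with the hexamer and up to 10 overlapping the 100 pg list by 100 pg sites, the 5 genes with most clusters, up to 4 genes of each of 14 lists, the study's 5 examples, and the extremes of position and length. Genes singled out beyond these (UBR4, ATP6V1G1, SRSF3, SET, DDX5, DDX17 and LSM5 among them) were chosen after their values were seen. A few genes the rules gave are not reported here, and remain in the counts. Of the clusters, 36 lie in another gene on the same strand and 80 opposite a gene. The site tables give depth only at called sites, so a cytosine without a site may be uncovered. Alternatives were a site score of at least 0.9, coverage of at least 20 reads, 50 nt added to each side, stricter membership, MANE Select transcripts alone, each library left out, a replicate block, and other reaches and transcripts.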

Additional observations from a re-analysis of the deposited data

How the results depend on the processing

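The 100 pg contrasts of RBFOX2 with Buffer-only kept their direction under all the alternatives run, and p stayed at 0.1, the smallest this design allows, except under the block. The difference in sites was 181, and 151.7 at a site score of at least 0.9 and 294.7 with 50 nt to each side. That padding also moved edited reads from 1318 to 2141, the share of 3′ UTR sites from 2.47 to 4.03 points and the share of all sites from 0.638 to 1.04, which was 1.06 with sites covered by at least 20 reads. Leaving out 1 library gave 177.7 to 184.7 sites, 0.624 to 0.649 points of all sites, 1238 to 1360 edited reads, 106.3 to 109.8 clusters with a site, 2.35 to 2.57 points of 3′ UTR sites, 37.1 to 38.9 points of listed sites and 22.1 to 28.5 points for clusters with the hexamer. Chosen after seeing the data, leaving out clusters in another gene on either strand gave 141.7 sites, and keeping only clusters with a site in each 1 ng RBFOX2 library gave 155.3. With a replicate block the differences are the same (181 sites) and the exact sign-flip p is 0.25, the smallest for 3 pairs. Deviations of libraries with equal replicate numbers had correlations of 0.01, -0.06 and 0.00 across 260 clusters. Most clusters hold few sites, so these values cannot tell whether equal numbers pair the libraries.

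Mean sites at 1 ng moved from 880 to 379.3 at a score of at least 0.9 and to 1206 with 50 nt to each side, and from 722.5 to 980 with 1 library left out. By construction the score limit keeps fewer sites and the padding widens the regions. The mean of 722.5 was without RBFOX2 replicate 3 and that of 980 without replicate 2. The median position moved from 43.1% to 57.8% on the transcript with the shortest UTR. The share with UGCAUG was 13.5% inside the cluster and 36.4% within 200 nt (19.1% of windows of that size). Clusters with non-overlapping groups at 100 pg numbered 33, and 54 with 50 nt to each side, where no padded share over all 3′ UTR clusters is given. Depth limits single clusters: most hold 0 sites at 100 pg (318 of 564 in RBFOX2), and a site not called there may be uncovered. The Enzyme-only group has 1 library per input, so its spread is unknown.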
